A study of Mus musculus with 3 samples.

Results

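Nuclei of mouse submandibular glands that had been irradiated and then given either pilocarpine or saline were compared across all genes. Of 27633 nuclei kept in the whole series, 16998 belonged to the irradiated glands: 8376 in the library labelled IR+pilocarpine and 8622 in that labelled IR+saline. A nucleus was kept where at least 500 genes were detected and at most 5% of its unique molecular identifiers (UMIs, each standing for 1 captured RNA molecule) fell in mitochondrial genes. The mice were wild type. The sample titles give 90 days after irradiation for both glands and pilocarpine from day 30 to day 90, while the extraction protocol gives 93 days. One more library, from glands without irradiation or treatment (10635 kept nuclei), is quoted for orientation. Radiation dose, drug dose and route, strain, sex, the number of mice in a library and the hour of dissection are not given in the sources used here. Each group is 1 library, so differences between mice, between preparations and between treatments cannot be told apart. No test was possible, and every interval below covers counting error only.

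Pilocarpine is a muscarinic agonist, a drug that acts on the acetylcholine receptors through which parasympathetic nerves drive saliva. In acinar cells, the fluid-secreting cells of the gland, the M3 receptor (Chrm3) and the M1 receptor (Chrm1) act through the G protein Gq and phospholipase C-beta, which makes inositol trisphosphate. That messenger opens calcium channels of the endoplasmic reticulum. The calcium rise opens the chloride channel Ano1 and potassium channels, and water follows through aquaporin 5 (Aqp5). Mouse submandibular ducts change the salt content of saliva and, in their granular convoluted tubules, store growth factors and kallikrein proteases. Salivary glands are damaged by radiotherapy of the head and neck, and the series title names muscarinic agonism, calcium and ATP metabolism as its subject.

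The kept nuclei held 29177212 UMIs in the saline library and 33358056 in the pilocarpine library, and the median nucleus held 2113 and 2048. The libraries shared 24 cell barcodes, 0.278% of the saline and 0.287% of the pilocarpine nuclei. Xist and Tsix, RNAs of the X-inactivation locus, summed to 1627 and 1632 counts per 1000000 UMIs (CPM), and 4 Y-linked genes to 0.377 and 0.240 CPM. The 1% of nuclei with the most UMIs held 23.95% of all UMIs in the pilocarpine library, against 13.4% in the saline library.

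Clustering of all 3 libraries, without the genes of the studied lists, gave 21 clusters, named from marker genes. Acinar-like nuclei, with markers such as Mucl2, Lpo, Pip and Aqp5, were 43.2% of the saline library (42.1 to 44.2, exact Clopper-Pearson interval) and 58.1% of the pilocarpine library (57.1 to 59.2). The pilocarpine share was 14.96 points higher (Newcombe interval 13.5 to 16.4). Of all UMIs, however, these nuclei held 39.3% with saline and 39.2% with pilocarpine, so the class had nearly the same weight in both library sums. Duct-like nuclei, with the granular and striated duct markers Egf, Klk1 and the sodium channel subunit gene Scnn1b, were 19.01% with saline (18.2 to 19.9) and 4.15% with pilocarpine (3.74 to 4.60). In the non-irradiated library these classes made up 66.7% and 6.15%. For both classes the pilocarpine share lay nearer to the non-irradiated share than the saline share did. The acinar-like class pools several clusters, whose shares differed between these libraries and are given below.

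Ionocyte-like nuclei, a rare ductal type marked by Foxi1 and Ascl3, were 5.24% and 1.78% with saline and pilocarpine. Myoepithelial-like nuclei, which contract to squeeze saliva out of the acini, were 4.999% and 9.83%. Shares of 6.56% and 8.67% were measured for fibroblast-like, 2.23% and 3.24% for endothelial-like and 2.69% and 1.86% for macrophage-like nuclei. In the non-irradiated library myoepithelial-like nuclei were 3.65%, fibroblast-like 5.55% and endothelial-like 2.14%. For these classes the pilocarpine share lay farther from the non-irradiated share than the saline share did. For ionocyte-like (2.66%) and macrophage-like nuclei (0.921%) it lay nearer. Shares of T or NK-like nuclei (1.07% and 1.22%) and of nuclei like Schwann cells (0.661% and 0.872%) had a difference interval that included 0.

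**Figure D1:**
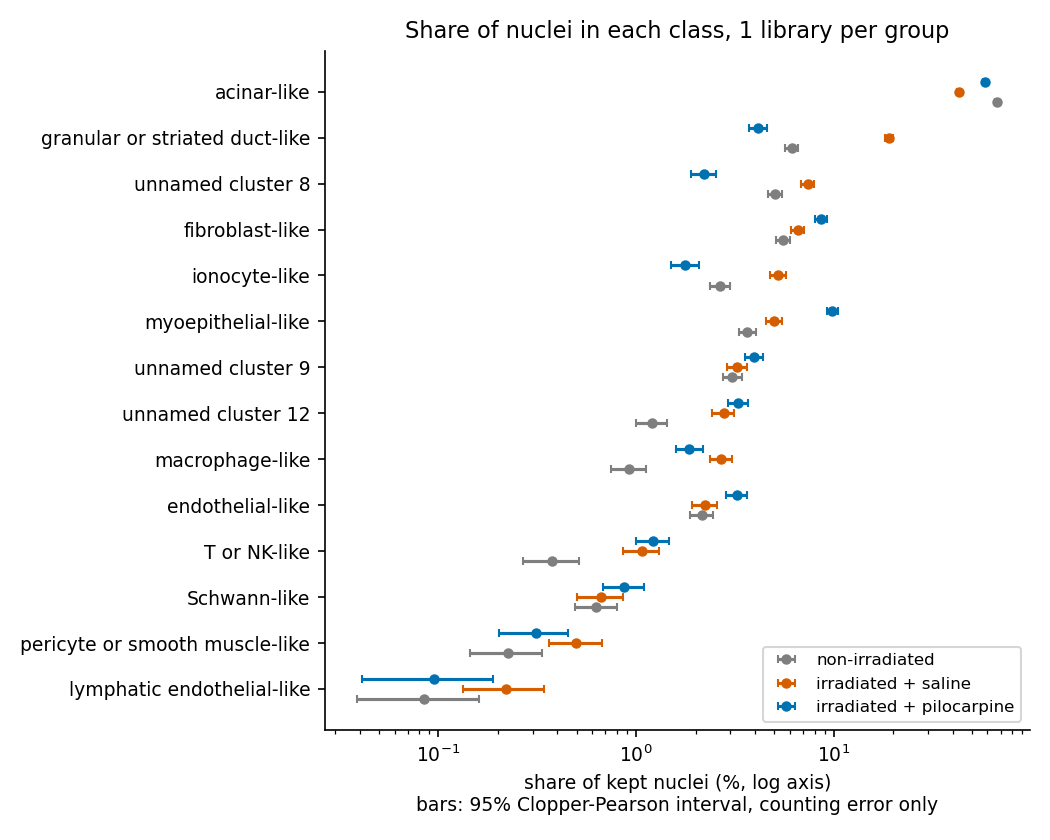
Share of kept nuclei in each class (percent, log axis) in the 3 libraries, 1 library per group; points are shares and bars exact 95% intervals for counting error. Duct-like nuclei stand at 19.01% with saline and 4.15% with pilocarpine, and acinar-like nuclei at 43.2% and 58.1%.

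Some clusters carried no name. Cluster 8, whose leading genes include Igkc, Nr1i2 and Duox2, was 7.38% and 2.20% of saline and pilocarpine nuclei. Cluster 9 was 3.26% and 3.96% of nuclei but 14.5% and 35.2% of UMIs. Its median nucleus held 7527 UMIs with saline and 18843 with pilocarpine, and its leading genes included the T cell genes Cd226 and Skap1. Acinar markers were the best match of both, below a threshold that was set after the data were seen. Clusters 1 and 2 held most acinar-like nuclei of the saline library (20.3% and 13.3% of the library), but only 2.22% each of the non-irradiated library. In the pilocarpine library they held 17.2% and 18.8%. Cluster 6, led by mitochondrial and ribosomal genes and with a median of 955.5 UMIs over all libraries, held 2.59% with saline and 8.74% with pilocarpine. Its non-irradiated share was 8.30%. Cluster 0 held 3.07% and 7.07% with saline and pilocarpine, against 30.8% of the non-irradiated library. For cluster 3 these shares were 2.02%, 4.43% and 21.6%. Cluster 13, also counted as acinar-like, was led by cell division genes such as Top2a. Nuclei were sorted by flow cytometry on a DNA stain, and the part of sorting and recovery in these shares was not tested.

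Across the 14554 genes with at least 100 UMIs over both libraries together, 382 (2.62%) were at least 1.5-fold higher with pilocarpine and 723 (4.97%) at least 1.5-fold lower, that is at a CPM ratio of at most 0.667. At least 2-fold differences were seen for 57 genes upward and 297 downward. The median log2 ratio (of CPM + 1) over all genes was 0.04. In sums over a whole library, fewer cells of a type and less RNA per cell cannot be told apart, so values within classes are given beside the sums. When every class was given the same share in both libraries, 184 genes were higher and 527 lower, and 118 and 300 of the genes counted above were among them. Of the 35 gene lists studied, the highest median belonged to antigen presentation and interferon-gamma response genes and the lowest to the products of the granular tubules. The lists were chosen with earlier results of these data known, so this ranking and the list counts below are descriptions only.

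**Figure D2:**
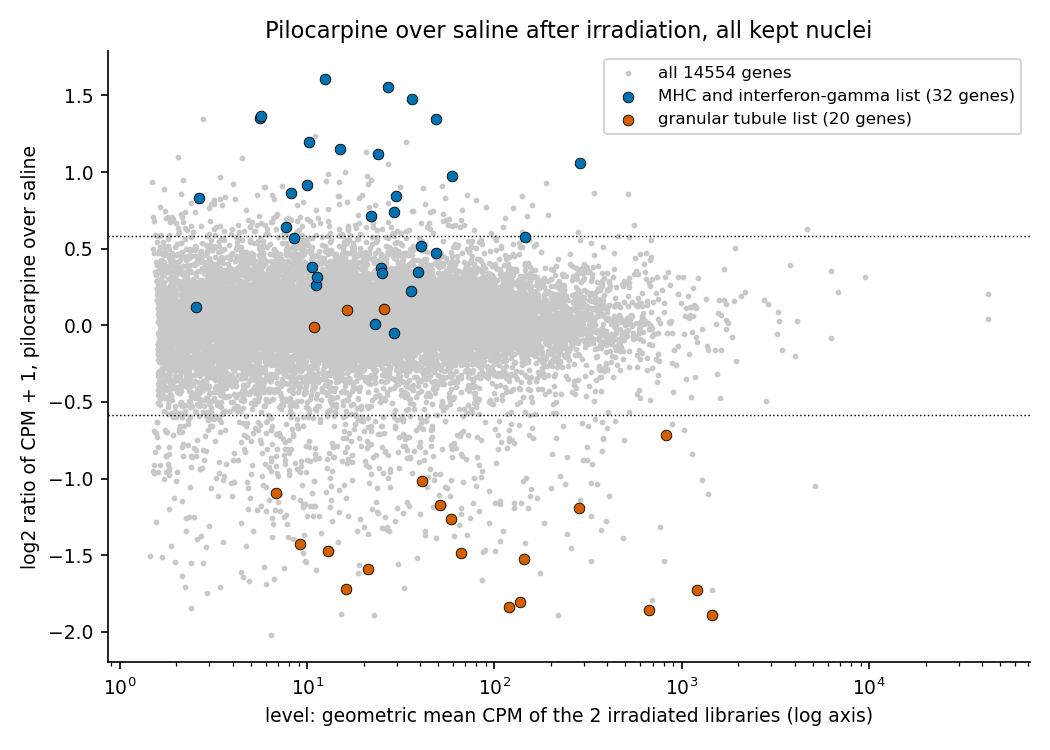
Log2 ratio of CPM + 1, pilocarpine over saline, against level (CPM, log axis) for 14554 genes, with dotted lines at 1.5-fold. Of the MHC and interferon-gamma list 31 of 32 genes have a ratio above 1, and 17 of 20 granular tubule genes are at least 1.5-fold lower.

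Major histocompatibility complex (MHC) class I molecules show peptides from inside a cell to T cells. Interferon-gamma, signalling through the kinases Jak1 and Jak2, is known to raise their genes together with the peptide transporter gene Tap1, the immunoproteasome genes Psmb8 and Psmb9 and the class I transactivator gene Nlrc5. It also raises GTPases that act against microbes inside cells, the guanylate binding proteins (Gbp) and the immunity-related GTPases (Irgm2, Igtp, Iigp1). Of 33 such genes listed, 32 had enough UMIs. In the pilocarpine library 19 of the 32 were at least 1.5-fold higher and 0 lower, against 2.62% and 4.97% of all genes. Their median log2 ratio was 0.73 against 0.04 over all genes, and 29 had an interval wholly above 1. The list summed to 549.5 CPM in the non-irradiated, 831 CPM in the saline and 1476 CPM in the pilocarpine library. For 30 of the 32 genes the levels stood in that same order.

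Promoters of this group are printed because its members were higher together and interferons are known to act through short DNA elements. The windows are the 250 bases before the RefSeq start (GRCm38.p6), 5′ to 3′ on the gene's strand. Shown are the first 5 of the members called higher that hold a match, in order of the lower bound of their ratio, and H2-K1, the most abundant member, which holds none. Capitals mark letters that match, on either strand, the interferon-stimulated response element (GAAA, any 2 bases, GAAA) or the gamma-activated sequence (TTC, any 3 bases, GAA). The motifs may share letters and were counted separately.
Igtp, chr11:58199306-58199555, plus strand: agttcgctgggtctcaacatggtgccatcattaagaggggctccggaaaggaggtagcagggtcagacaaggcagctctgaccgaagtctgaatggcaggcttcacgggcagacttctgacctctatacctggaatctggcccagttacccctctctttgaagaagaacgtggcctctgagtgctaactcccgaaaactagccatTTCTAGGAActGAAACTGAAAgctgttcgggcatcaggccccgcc
Gbp2, chr3:142620413-142620662, plus strand: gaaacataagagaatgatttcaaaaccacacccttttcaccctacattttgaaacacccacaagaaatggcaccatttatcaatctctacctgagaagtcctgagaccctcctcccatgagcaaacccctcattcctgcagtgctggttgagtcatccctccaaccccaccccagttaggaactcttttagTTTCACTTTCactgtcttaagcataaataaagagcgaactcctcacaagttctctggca
Irgm2, chr11:58214727-58214976, plus strand: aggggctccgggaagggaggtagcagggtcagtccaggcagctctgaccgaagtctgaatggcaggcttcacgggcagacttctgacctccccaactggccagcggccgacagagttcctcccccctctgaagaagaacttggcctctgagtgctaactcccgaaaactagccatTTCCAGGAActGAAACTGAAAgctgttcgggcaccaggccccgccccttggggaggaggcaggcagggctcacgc
Gbp3, chr3:142559794-142560043, plus strand: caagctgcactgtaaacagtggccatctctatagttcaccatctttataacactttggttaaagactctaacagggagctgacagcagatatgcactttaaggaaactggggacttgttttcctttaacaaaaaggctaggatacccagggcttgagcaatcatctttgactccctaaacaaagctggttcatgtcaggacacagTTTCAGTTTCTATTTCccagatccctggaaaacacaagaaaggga
Gbp5, chr3:142496684-142496933, plus strand: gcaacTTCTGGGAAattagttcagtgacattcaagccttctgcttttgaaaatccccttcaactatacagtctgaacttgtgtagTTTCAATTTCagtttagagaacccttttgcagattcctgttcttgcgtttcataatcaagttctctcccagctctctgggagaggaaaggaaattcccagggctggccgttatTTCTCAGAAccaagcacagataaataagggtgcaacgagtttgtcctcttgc
H2-K1, chr17:34000348-34000597, minus strand: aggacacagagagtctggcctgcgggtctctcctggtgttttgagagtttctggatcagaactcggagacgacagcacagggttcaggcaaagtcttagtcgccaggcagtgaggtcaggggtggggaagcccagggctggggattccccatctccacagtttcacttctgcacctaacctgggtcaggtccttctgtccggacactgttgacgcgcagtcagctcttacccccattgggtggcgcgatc
Of the 19 members called higher, 13 had a promoter entry, of which 6 held the first motif and 5 the second. Of all 32 members tested, called or not, 23 had an entry, of which 10 held the first motif and 6 the second. Whether matches go with being called was not tested. A member was counted where any of its windows matched, while the background below counts windows. Over all 32851 RefSeq promoter windows of this length, 2.98% held the first and 7.02% the second. The second motif was chosen after the values were seen. A match describes letters in a window and says nothing of a factor bound there. Only these exact letters were searched, so a window without a match, such as that of H2-K1, may still hold a looser form of either element.

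H2-K1 (ENSMUSG00000061232, chr17:33996017-34000347, minus strand, GRCm38), a classical class I heavy chain gene, stood at 156 CPM in the non-irradiated, 199 CPM in the saline and 415 CPM in the pilocarpine library (2.09 times, 2.03 to 2.16, pilocarpine over saline). H2-D1, another classical heavy chain gene, was at 118 and 177 CPM with saline and pilocarpine, a ratio of 1.496 just under the threshold. H2-Ab1, a class II chain gene, lay just inside it (1.56 times, 1.31 to 1.86). H2-Q6 was at 21.4 and 61.4 CPM (2.87 times, 2.62 to 3.14) and H2-Q7 at 30.4 and 78.7 CPM (2.59 times, 2.40 to 2.80). These are closely similar neighbours on chromosome 17, so reads may be split between them and single values are uncertain. Nlrc5 (chr8:94434356-94527272, plus strand), which drives class I transcription, was at 42.4 and 84.0 CPM (1.98 times, 1.85 to 2.12). B2m, the light chain that class I molecules need, was at 34.5 and 44.3 CPM (1.28 times, 1.18 to 1.39).

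The 4 highest ratios of the list belonged to GTPase genes. Gbp4 was at 6.82 and 22.9 CPM (3.35 times, 2.87 to 3.94), Iigp1 at 15.5 and 47.5 CPM (3.06 times, 2.76 to 3.41) and Igtp at 3.26 and 9.95 CPM (3.06 times, 2.43 to 3.88). Gbp2 was at 3.22 and 9.77 CPM (3.03 times, 2.40 to 3.86), Irgm2 at 15.9 and 35.6 CPM and Gbp6 at 9.73 and 22.8 CPM. Gbp8, a family member that is not on the list, was at 6.89 and 17.6 CPM. The annotated Gbp4 and Gbp8 genes overlap on chromosome 5, as do Irgm2 and Igtp on chromosome 11, and Gbp genes are alike in sequence, so how reads are split among them is uncertain. The immunoproteasome gene Psmb9 was at 6.48 and 16.2 CPM (2.49 times, 2.11 to 2.96) and Tap1 at 22.2 and 37.7 CPM (1.70 times, 1.55 to 1.87). Cd74, the class II invariant chain gene, was the one tested member with a ratio under 1, at 29.5 and 28.5 CPM (ratio 0.966, 0.880 to 1.06).

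**Figure D3:**
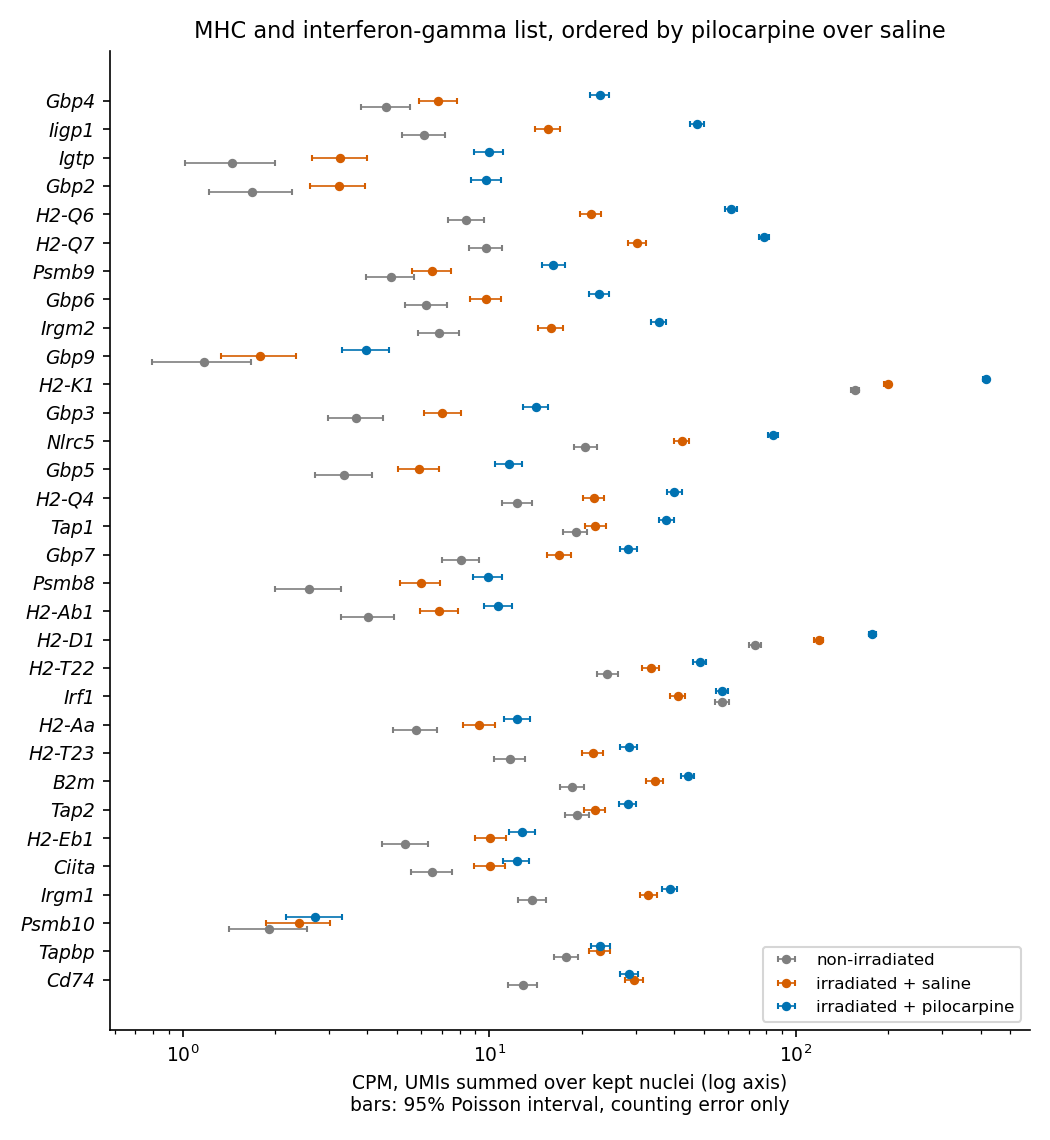
CPM (log axis) of the 32 tested MHC and interferon-gamma genes in the 3 libraries, ordered by the ratio of pilocarpine to saline; bars are 95% Poisson intervals for counting error. Gbp4, with the highest ratio, is at 6.82 and 22.9 CPM with saline and pilocarpine, and Cd74, with the lowest, at 29.5 and 28.5 CPM.

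Members of the MHC and interferon-gamma response list were also higher inside classes of nuclei. Among acinar-like nuclei 16 of 23 members with enough UMIs were higher and 0 lower (all genes, 1.58% and 1.39%), with a median log2 ratio of 1.14 against 0.05. The whole list summed there to 529 and 1157 CPM (2.19 times, 2.12 to 2.25). Within these nuclei H2-Q7 was at 5.58 and 57.0 CPM (10.2 times, 7.90 to 13.4), Nlrc5 at 13.4 and 59.7 CPM (4.45 times, 3.74 to 5.32) and H2-K1 at 169 and 424 CPM. In fibroblast-like nuclei 13 of 20 members were higher and 0 lower (all genes, 7.13% and 3.9%), with a summed ratio of 1.88 (1.78 to 1.99). In myoepithelial-like nuclei 11 of 15 were higher and 0 lower (all genes, 5.35% and 3.08%), with a summed ratio of 1.94 (1.80 to 2.10). Duct-like nuclei had 6 of 9 higher and 0 lower (all genes, 4.79% and 6.07%), with a summed ratio of 1.57 (1.44 to 1.72).

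Endothelial-like and T or NK-like nuclei had high and similar sums of the list in both irradiated libraries. The sum was 2946 and 2966 CPM in endothelial-like nuclei (ratio 1.01, 0.941 to 1.08) and 3114 and 3204 CPM in T or NK-like nuclei (1.03, 0.936 to 1.13). Macrophage-like nuclei, whose marker list shares Cd74 with this group, had 1776 and 2698 CPM (1.52, 1.43 to 1.61). Whether these ratios differ between classes was not tested. By cluster, the summed ratio was above 1 in 20 of 21 clusters, and its interval lay wholly above 1 in 17. The exception was the small cluster 19, with 12 and 26 nuclei (ratio 0.753, 0.560 to 1.02). Over the whole libraries the markers of macrophages summed to 128 and 114 CPM, with 0 of 7 above a ratio of 1, and those of T or NK cells to 71.7 and 67.7 CPM, with 4 of 7 above 1. Ptprc, a marker on both lists, was at 43.5 and 39.1 CPM. Without cluster 9, an alternative added after the data were seen, 20 of 32 members were higher and 0 lower.

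**Figure D4:**
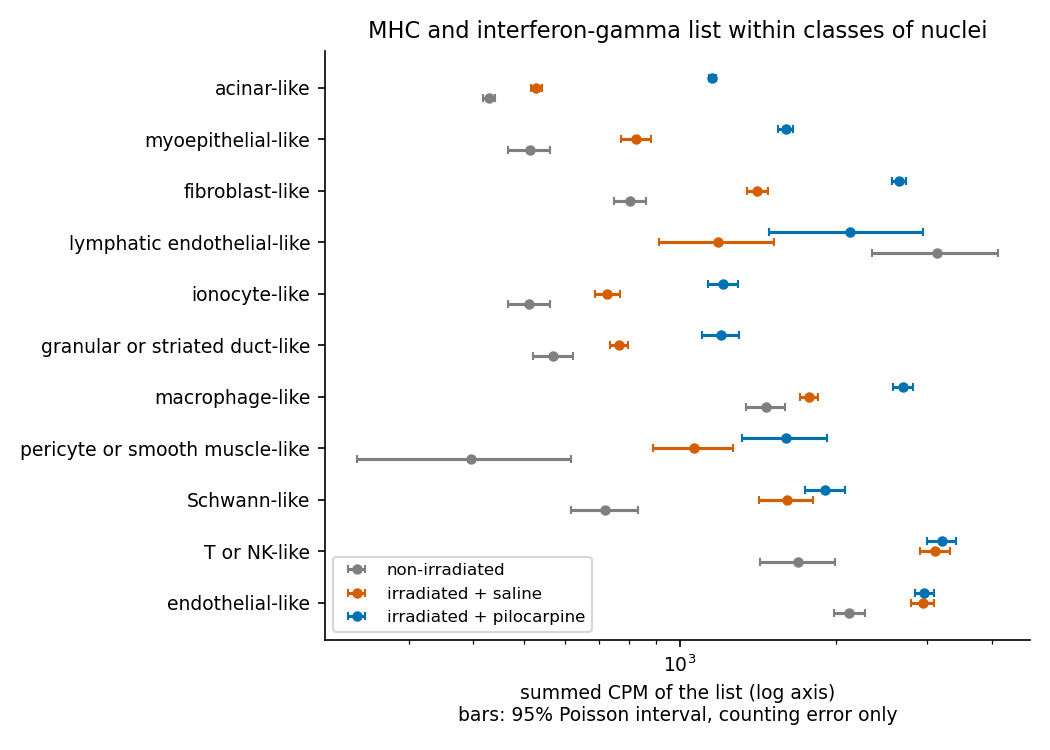
Summed CPM of the MHC and interferon-gamma response list (log axis) within each class in the 3 libraries; bars are 95% Poisson intervals for counting error. Acinar-like nuclei stand at 529 and 1157 CPM with saline and pilocarpine, and endothelial-like nuclei at 2946 and 2966 CPM.

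Another list held interferon response genes centred on type I interferon, with Irf7, Isg15 and the Ifit and Oas families. Of 28 tested, 2 were higher and 3 lower (all genes, 2.62% and 4.97%), and the median log2 ratio was -0.11. Within acinar-like nuclei 2 of 20 were higher and 0 lower (all genes, 1.58% and 1.39%), with a median log2 ratio of 0.02. A difference between this list and the MHC list was not tested. Oasl1 was at 14.1 and 5.88 CPM with saline and pilocarpine (2.40-fold lower, 2.02 to 2.86; ratio 0.649 with classes at equal shares), Ifi44 at 22.8 and 14.3 CPM and Ifit1 at 11.2 and 6.98 CPM, all genes that interferons induce. Cxcl10, a chemokine that answers to interferon-gamma as well, was at 1.99 and 3.69 CPM (1.85 times, 1.35 to 2.58), with a ratio of 1.23 when classes had equal shares. Among promoters of this list 9 of 20 held the response element. Signalling genes were looked up after these values were seen. Ifng itself had 4 UMIs with saline and 1 with pilocarpine. The receptor gene Ifngr1 was at 19.4 and 19.2 CPM, Jak2 at 54.7 and 55.5 CPM and the feedback inhibitor gene Socs1 at 0.925 and 1.62 CPM (1.75 times, 1.08 to 2.89).

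The granular convoluted tubule makes epidermal growth factor (Egf), kallikrein proteases (Klk1 and the Klk1b genes) and the secreted protein Crisp3. Of 20 tested members of this list 17 were at least 1.5-fold lower with pilocarpine and 0 higher, against 4.97% and 2.62% of all genes, with a median log2 ratio of -1.45. The list summed to 4071 CPM in the non-irradiated, 8968 CPM in the saline and 3044 CPM in the pilocarpine library. Egf (ENSMUSG00000028017, chr3:129677565-129755316, minus strand) was at 1092 CPM in the non-irradiated, 2195 CPM in the saline and 662 CPM in the pilocarpine library (3.32-fold lower, 3.27 to 3.37), and Crisp3 at 514, 1266 and 349 CPM in the same order (3.63-fold lower, 3.56 to 3.71). For both genes the saline library was highest and the pilocarpine library lowest.

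Most kallikreins stood in the same direction. Klk1b21 was at 227 and 62.9 CPM with saline and pilocarpine (3.61-fold lower, 3.44 to 3.80), Klk1b5 at 258 and 73.2 CPM, and Klk1, the tissue kallikrein gene, at 1055 and 643 CPM (1.64-fold lower, 1.61 to 1.67). Klk1b genes are closely similar copies, so reads may be split among them and single values are uncertain. Tgfa, an ErbB ligand gene listed with this group, was at 24.8 and 26.8 CPM, the highest ratio of the list. Among the other genes named for the lowest ratios were Slit2, an axon guidance ligand gene (2629.8 and 795 CPM), Stxbp5l, a regulator of exocytosis (1288 and 371 CPM), Luzp4 (44.9 and 11.4 CPM), the glycosyltransferase gene B3gnt5 (11.996 and 3.03 CPM), the dynein gene Dnah10 (30.6 and 8.48 CPM) and the acid phosphatase gene Acp4 (12.9 and 3.42 CPM). Of their UMIs in the saline library, from 30.5% (Acp4) to 41.1% (Slit2) lay in duct-like nuclei.

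Inside duct-like nuclei the granular tubule list was lower too, with a median nearer to 0. There 9 of 16 members with enough UMIs were lower and 0 higher (all genes, 6.07% and 4.79%). The median log2 ratio was -0.69 against -0.04 for all genes. Egf was at 7319 and 3909 CPM (1.87-fold lower, 1.79 to 1.96) and Crisp3 at 4541 and 2567 CPM. Klk1 stood the other way, at 2909 and 3341 CPM (1.15 times, 1.09 to 1.21). With classes at equal shares 13 of 20 members were lower in the whole sums (all genes, 527 of 14554), with a median of -0.77. The ratio was then 0.498 for Egf.

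**Figure D5:**
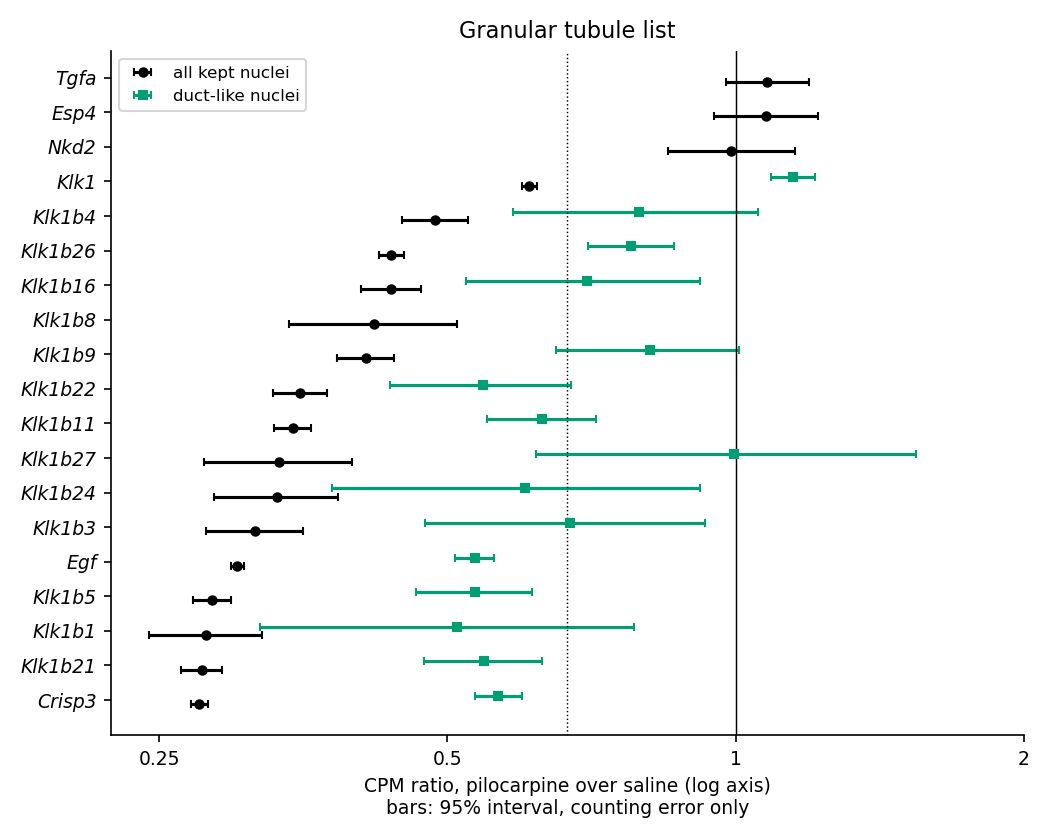
CPM ratio of pilocarpine to saline (log axis) for 19 granular tubule genes over all kept nuclei (circles) and for the 15 with enough UMIs in duct-like nuclei (squares); bars are 95% intervals for counting error. Egf lies at 0.302 over all nuclei and 0.534 within duct-like nuclei, and Klk1 at 0.609 and 1.15.

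RNA of one cell type in nuclei of another differed between the libraries as well. The summed granular tubule products were lower with pilocarpine in all 21 clusters, with the interval below 1 in each, also in endothelial-like nuclei (7493 and 2413 CPM), a type that should lack them. Acinar secretory products stood the other way. Within duct-like nuclei (1639 and 348) Mucl2, an acinar product, was at 17341 and 59019 CPM (3.40 times, 3.36 to 3.45). All other nuclei of these libraries had Mucl2 at 42783 and 45910 CPM. Summed acinar products were at 20365 and 67167 CPM in duct-like nuclei, and at 78549 and 78052 CPM in acinar-like nuclei. In fibroblast-like nuclei the summed acinar products had a ratio of 1.65 (1.63 to 1.67). The part of this RNA in the duct-like values was not tested, nor was whether the duct-like class of the pilocarpine library is mixed.

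Striated and excretory ducts take up sodium and chloride through the epithelial sodium channel, Cftr and other channels, under mineralocorticoid control. Of 18 tested genes of the ductal ion transport list 12 were lower and 0 higher (all genes, 4.97% and 2.62%), with a median log2 ratio of -0.98. Scnn1b was at 147 and 59.7 CPM with saline and pilocarpine (2.46-fold lower, 2.34 to 2.60), Cftr at 115 and 47.6 CPM (2.42-fold lower, 2.28 to 2.57), the potassium channel gene Kcnj16 at 53.7 and 17.6 CPM and the mineralocorticoid receptor gene Nr3c2 at 468 and 229 CPM. The sodium-proton exchanger gene Slc9a3 had the highest ratio, at 15.97 and 18.5 CPM. Within duct-like nuclei 2 of 12 members were lower (all genes, 6.07%), with a median of -0.14, and with classes at equal shares 3 of 18, with a median of -0.27. Scnn1b inside duct-like nuclei was at 492 and 414 CPM (1.19-fold lower, 1.03 to 1.38).

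Pilocarpine acts through receptor and signalling genes of the muscarinic and Gq signalling list. Of 26 listed, 18 were tested over all nuclei, of which 0 were higher and 0 lower, with a median log2 ratio of -0.08; with classes at equal shares 1 was lower. Within fibroblast-like nuclei 2 of 7 were higher and 1 lower (all genes, 7.13% and 3.9%). Within duct-like nuclei 1 of 8 was higher and 0 lower (all genes, 4.79% and 6.07%), and within acinar-like nuclei 0 and 0 of 13 (all genes, 1.58% and 1.39%). Chrm3 (chr13:9875486-10360847, minus strand) was at 3356 CPM in the non-irradiated, 2763 CPM in the saline and 3046 CPM in the pilocarpine library (1.10 times, 1.09 to 1.11), and within acinar-like nuclei at 3778 and 3673 CPM. Chrm1 was at 11.8 and 13.01 CPM (1.10 times, 0.953 to 1.27). The G protein gene Gnaq was at 707 and 674 CPM and the phospholipase gene Plcb4 at 3156 and 3353 CPM. Rgs5 and Grk6, which damp receptor signalling, had the lowest and the highest ratio, 0.684 (0.481 to 0.969) and 1.14 (1.02 to 1.27).

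Of 17 calcium release and entry genes 1 was higher and 3 lower (all genes, 2.62% and 4.97%), and the median was -0.02. Itpr2, an inositol trisphosphate receptor gene, was at 544 and 353 CPM (1.54-fold lower, 1.51 to 1.58), but at 205 and 208 CPM within acinar-like nuclei (ratio 1.01, 0.959 to 1.07). In those nuclei 0 of 10 members of the list were higher and 0 lower. Trpv4, a calcium-permeable channel gene, was at 5.21 and 9.26 CPM (1.78 times, 1.46 to 2.17), with a ratio of 1.19 at equal shares, and the ryanodine receptor gene Ryr2 at 2.54 and 1.20 CPM. Of 20 genes for calcium pumps, exchangers and mitochondrial uptake 0 were higher and 0 lower. Atp2a2, which pumps calcium back into the endoplasmic reticulum, was at 383 and 494 CPM (1.29 times, 1.26 to 1.32), and within acinar-like nuclei at 465 and 525 CPM. Of 21 calcium effectors 0 were higher and 1 was lower: Rcan2, a regulator of calcineurin, at 116 and 55.4 CPM. Among 13 adrenergic and peptide secretagogue receptor genes, 4 were lower and 0 higher (all genes, 4.97% and 2.62%), against 2 lower with classes at equal shares and 0 of 7 within acinar-like nuclei. The lowest was Adra1a, the alpha-1A adrenergic receptor gene, at 425 and 154 CPM (2.75-fold lower, 2.66 to 2.84), which had 35.8% of its saline UMIs in duct-like nuclei and a ratio of 0.668 with classes at equal shares.

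Acinar fluid secretion runs on chloride entry through Slc12a2, exit through Ano1, and water flow through Aqp5. Aqp5 was at 171 CPM in the non-irradiated, 138 CPM in the saline and 200.2 CPM in the pilocarpine library (1.45 times, 1.39 to 1.505), Ano1 at 436, 318 and 453 CPM in the same order (1.43 times, 1.39 to 1.46) and the potassium channel gene Kcnn4 at 645, 510.3 and 704 CPM. For these genes the saline library was lowest. Of 21 tested genes 1 was higher and 3 lower (all genes, 2.62% and 4.97%), with a median of 0.07. The one called higher was Car6, a secreted carbonic anhydrase gene, at 3767 and 5826 CPM (1.55 times, 1.54 to 1.56), with a ratio of 1.48 at equal shares. Within acinar-like nuclei 0 of 18 were higher and 0 lower, with Aqp5 at 229 and 264 CPM (1.15 times, 1.10 to 1.21) and Ano1 at 473 and 525 CPM.

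Of 13 acinar secretory products 2 were higher and 3 lower (all genes, 2.62% and 4.97%), with a median of 0.20. Pigr, the receptor that carries immunoglobulin A into saliva, was at 43.4 CPM in the non-irradiated, 8.88 CPM in the saline and 18.6 CPM in the pilocarpine library (2.09 times, 1.81 to 2.43). Bpifa2, a secreted salivary protein gene, was at 1.53, 81.3 and 38.5 CPM in the same order (2.11-fold lower, 1.97 to 2.26). Both thus lay, in the pilocarpine library, between the saline and the non-irradiated value. Within acinar-like nuclei Bpifa2 was at 119 and 34.2 CPM (3.49-fold lower, 3.14 to 3.90). Of 7 mucous and proacinar genes 1 was higher and 0 lower, Creb3l4 at 8.16 and 12.5 CPM, with a ratio of 1.31 at equal shares.

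Energy metabolism, named in the series title, was read from nuclear genes of the respiratory chain and of fuel use. Of 41 genes of respiratory complexes I and II 0 were higher and 0 lower, with a median of 0.02, and of 39 genes of complexes III and IV and ATP synthase 0 and 0, with a median of -0.07. Within acinar-like nuclei the medians were 0.11 and 0.15, beside 0.05 for all genes, and 1 of 41 and 0 of 39 were higher (all genes, 1.58%). The tricarboxylic acid cycle list had 0 of 31 higher and 1 lower (Pdp1, a pyruvate dehydrogenase phosphatase gene, at 20.3 and 11.8 CPM; ratio 0.763 at equal shares), and fatty acid oxidation 0 of 29 higher and 0 lower. Of 21 glycolysis genes 1 was higher and 2 lower (all genes, 2.62% and 4.97%). The one higher was the hexokinase gene Hk2 at 113 and 173 CPM (1.53 times, 1.47 to 1.60). With classes at equal shares its ratio was 1.30, and 0 glycolysis genes were higher and 0 lower. Of 29 genes of mitochondrial biogenesis and energy sensing 0 were higher and 2 lower. Ppargc1a, the coactivator gene that drives mitochondrial biogenesis, was at 193 and 166 CPM (1.17-fold lower, 1.12 to 1.21), and Esrrg, a nuclear receptor gene, at 7359.8 and 3557 CPM (2.07-fold lower, 2.05 to 2.08). Esrrg had 32.2% of its saline UMIs in duct-like nuclei and a ratio of 0.712 with classes at equal shares.

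Mitochondrially encoded RNA is mostly lost with the cytoplasm when nuclei are isolated, and its 13 genes summed to 410.0 and 409 CPM. Of 12 tested 0 were higher and 1 was lower (mt-Nd3, a complex I subunit gene, at 2.88 and 1.89 CPM). Within duct-like nuclei 6 of 6 with enough UMIs were higher (all genes, 4.79%), and the sum was 483 and 1051 CPM (2.18 times, 1.97 to 2.40). These are the nuclei in which acinar RNA was also higher, and its part was not tested.

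Immediate early genes are transcribed within minutes of a stimulus. Of 27 tested 9 were lower with pilocarpine and 0 higher (all genes, 4.97% and 2.62%), with a median log2 ratio of -0.39, and the list summed to 354 CPM in the non-irradiated, 609.6 CPM in the saline and 464 CPM in the pilocarpine library. Fos, which codes for a subunit of the AP-1 transcription factor, was at 3.496 and 0.959 CPM (102 and 32 UMIs; 3.64-fold lower, 2.43 to 5.604), and its partner gene Jun at 34.1 and 14.3 CPM (2.39-fold lower, 2.14 to 2.67). Dusp1, which codes for a phosphatase that ends MAP kinase signals, was at 20.4 and 6.06 CPM. Dusp6 had the highest ratio, at 23.5 and 33.2 CPM (1.41 times, 1.28 to 1.56). Within acinar-like nuclei 9 of 19 were lower and 0 higher (all genes, 1.39% and 1.58%), and Dusp1 was at 26.6 and 5.05 CPM (5.27-fold lower, 4.02 to 6.98). Duct-like nuclei had only 4 members with enough UMIs, 1 lower and 1 higher (all genes, 6.07% and 4.79%), with a median of 0.28. The immediate early genes summed there to 368 and 369 CPM. The summed ratio was below 1 in 19 of 21 clusters, with the interval below 1 in 16.

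Growth factors of the gland act on epithelium and nerves. Of 15 ErbB ligand and receptor genes 0 were higher and 2 lower (all genes, 2.62% and 4.97%). The highest ratio was that of Nrg2, a neuregulin gene, at 52.8 and 76.3 CPM (ratio 1.44, or 0.955 with classes at equal shares). Of 26 neurotrophic and axon guidance genes 3 were higher and 6 lower, beside the same shares of all genes. Nrtn, which codes for neurturin, a survival factor for parasympathetic neurons, was at 5.40 CPM in the non-irradiated, 5.14 CPM in the saline and 7.88 CPM in the pilocarpine library (150 and 263 UMIs; 1.53 times, 1.25 to 1.89). With classes at equal shares the ratio of Nrtn was 1.21 and 0 genes of the list were higher. Ntrk3, a neurotrophin receptor gene, was at 121 and 208 CPM (1.73 times, 1.66 to 1.80), but its ratio was 0.947 with that weighting.

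Of 28 progenitor and duct plasticity genes 1 was higher and 3 lower (all genes, 2.62% and 4.97%). Trp63, a basal and myoepithelial transcription factor gene, was at 52.2 and 84.7 CPM (1.62 times, 1.52 to 1.73), with a ratio of 0.836 at equal shares, and Ascl3, an ionocyte factor gene, at 22.997 and 10.6 CPM. Of 33 matrix and fibrosis genes 4 were higher and 2 lower (all genes, 2.62% and 4.97%), with a median of 0.18 that was -0.15 at equal shares. Col5a3, a fibrillar collagen gene, was at 23.5 CPM in the non-irradiated, 10.4 CPM in the saline and 20.8 CPM in the pilocarpine library (1.9996 times, 1.75 to 2.30). Within fibroblast-like nuclei 1 of 22 was higher and 3 lower (all genes, 7.13% and 3.9%). There the collagen genes Col1a2 and Col3a1 were at 426 and 420.3 CPM and at 481 and 469.8 CPM.

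Genes were also named within 4 classes, 3 in each direction, by how far their interval lay from 1. The rule asked for a level at least that of the other nuclei only in the library where the gene was higher, so these names are a description and their number supports nothing. In acinar-like nuclei those named as higher were H2-K1, Slc52a2, a riboflavin transporter gene (21 and 63 UMIs; 2.63 times, 1.58 to 4.54), and Rap1gap, which codes for a protein that switches off the small GTPase Rap1 (559 and 865 CPM; 1.55 times, 1.501 to 1.60). Lower in acinar-like nuclei were Lingo2 (8.89 and 1.07 CPM), Dusp1 and Bpifa2. In fibroblast-like nuclei H2-Q6, Igtp and Iigp1 were higher, Iigp1 at 125 and 384 CPM (3.08 times, 2.57 to 3.72). Lower there were Smgc, a salivary mucin-like product whose gene overlaps Muc19 (63 and 14 UMIs), the potassium channel gene Kcnn3 (44.9 and 12.05 CPM) and the adhesion protein gene Mdga2 (681 and 289 CPM).

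Duct-like nuclei had Duox2, an epithelial oxidase gene whose product makes hydrogen peroxide (10.4 and 78.6 CPM; 32 and 40 UMIs), Mucl2 and the translation factor gene Eef1a1 as higher. Named as lower there were the transcription factor gene Maf (156 and 49.1 CPM), Luzp4 and Egf. In myoepithelial-like nuclei Gbp4 (2 and 91 UMIs; 22.8 times, 6.14 to 191), Nlrc5 and Psmb9 were higher, and Arhgef6, Itgbl1 and Rad51b lower, Itgbl1 at 325 and 144 CPM.

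Of the genes named as higher over all nuclei, Pde10a and Mir205hg are neither on the MHC and interferon-gamma list nor Gbp genes. Pde10a, which codes for a phosphodiesterase that breaks down cyclic nucleotides, was at 12.7 CPM in the non-irradiated, 13.7 CPM in the saline and 31.2 CPM in the pilocarpine library (2.27 times, 2.02 to 2.56). Its ratio was 5.76 in acinar-like nuclei (32 and 210 UMIs) and 1.20 in fibroblast-like nuclei. Mir205hg, a long non-coding host RNA, was at 18.5 and 39.5 CPM (2.13 times, 1.92 to 2.36). It had 72.6% of its saline UMIs in myoepithelial-like nuclei, whose share of nuclei was higher with pilocarpine, and within that class its ratio was 1.07.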

How the data were processed

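Single-nucleus RNA was measured in 3 libraries, 1 per group. Per the submitters' processing notes the authors used Cell Ranger 7.0.1 and GRCm38; whether introns were counted is not given in the sources used here. The deposited matrices hold raw UMI counts per gene and nucleus. Counts were summed over nuclei that passed the filter and divided by the library's UMIs (CPM). Ratios carry exact conditional binomial intervals, CPM exact Poisson intervals and shares Clopper-Pearson or Newcombe intervals, all 95%. Genes needed 100 UMIs over both libraries together, and a call is 1.5-fold. List medians use log2(CPM + 1).

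Nuclei were clustered in scanpy 1.11.5 (3000 variable genes, 30 components, 15 neighbours, Leiden resolution 1). A doublet caller called 0 nuclei and so had not worked; an alternative drops the 8% highest scores. Named genes are the 12 highest and 12 lowest by the interval bound nearest to 1, at 10 CPM or more in the higher library, without mitochondrial, ribosomal, immunoglobulin, haemoglobin, sex-linked and predicted genes; each list's highest and lowest member; preset genes (Chrm3, Chrm1, Aqp5, Ano1, Atp2a2, Itpr2, Egf, Nrtn, Cdkn1a, Ppargc1a); and 3 each way within 4 classes, at 50 UMIs or more in the class and, in the library where the gene is higher, at a level not below that of its other nuclei. Other genes named as examples were chosen after their values were seen. Members and gene lists were chosen with earlier results of these data known. The code was tested on simulated data. Alternatives covered filters, scaling (edgeR 4.0.16), the weight of nuclei, doublets and gene minimums. Gene coordinates were matched by gene ID in a GRCm38 annotation, and promoters are from RefSeq. Values of some genes that enter the counts are not reported here.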

Additional observations from a re-analysis of the deposited data

How the results depend on the processing

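No paired analysis was possible because there is only 1 library on each side. Against 382 genes higher and 723 lower, classes at equal shares gave 184 higher. A gene minimum of 10 UMIs gave 1224 higher and 2018 lower, and one of 500 UMIs gave 164 and 392, since more or fewer genes are then tested. The difference in duct-like share was -12.3 points with at least 1000 detected genes and -16.1 points without the 8% highest doublet scores, against -14.9; the cause was not tested. With classes at equal shares the ratios of Ntrk3 (0.947) and Trp63 (0.836) turned below 1; the cause was not tested. Of genes called, 34.6% were higher in the main sums and 25.9% with classes at equal shares. Counts stayed within 1.5 times under the other filters, edgeR TMM factors, a total without the 20 most abundant genes, equal weight per nucleus and leaving out cluster 9, which gave 446 and 803. The MHC and interferon-gamma response list held 18 to 21 of its members higher and 0 lower under the 9 alternatives for sums. Depth limits rare genes: Ifng had 4 and 1 UMIs.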

Other observations

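Stress, cell cycle, clock and junction lists were counted in the same way. Among 30 genes of the p53 and DNA damage list 1 was higher with pilocarpine and 2 lower (all genes, 2.62% and 4.97%). Its median log2 ratio was 0.04. Cdkn1a, which codes for the cell cycle inhibitor p21, was at 0.391 CPM in the non-irradiated, 4.04 CPM in the saline and 3.78 CPM in the pilocarpine library (ratio 0.934, 0.721 to 1.21). Of 22 proliferation genes 0 were higher and 1 lower, Cenpe, a mitotic motor protein gene (98 and 68 UMIs). That count was 6 lower with classes at equal shares, 6 with each nucleus of equal weight, 2 without the 8% highest doublet scores and 4 of 19 without cluster 9. Within acinar-like nuclei 0 of 15 were higher and 3 lower (all genes, 1.58% and 1.39%). Of 17 senescence and secreted inflammatory genes 0 were higher and 0 lower, as were 0 and 0 of 21 oxidative stress genes, 0 and 0 of 22 cytosolic heat shock genes and 0 and 0 of 32 genes of the unfolded protein response. The last list had a median of 0.12, and its highest ratio was that of Herpud1, a gene of protein quality control in the endoplasmic reticulum, at 271 and 394 CPM (1.45 times, 1.41 to 1.49).

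Of 7 clock activators 1 was higher and 0 lower: Npas2 was at 44.3 CPM in the non-irradiated, 8.84 CPM in the saline and 17.9 CPM in the pilocarpine library (2.02 times, 1.74 to 2.35), with a ratio of 1.41 when classes had equal shares. Of 15 clock repressors and outputs 0 were higher and 0 lower, and Per2 was at 18.9, 94.7 and 74.5 CPM in the same order. Of 16 glucocorticoid targets 1 was higher and 3 lower (all genes, 2.62% and 4.97%). Fkbp5, which codes for a co-chaperone of the glucocorticoid receptor, was at 94.7, 228 and 99.6 CPM (2.29-fold lower, 2.20 to 2.39), and its ratio was 0.634 in acinar-like and 0.587 in duct-like nuclei. Sgk1, a kinase gene that answers to the same hormones, was at 14.6, 46.2 and 19.6 CPM (2.35-fold lower, 2.14 to 2.59).

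Of 35 granule exocytosis genes 0 were higher and 3 lower (all genes, 2.62% and 4.97%). The synaptotagmin-like gene Sytl5 was at 150.3 and 66.6 CPM, with 32.6% of its saline UMIs in duct-like nuclei. Of 18 tight junction genes 1 was higher and 2 lower, beside the same shares of all genes. Cldn10, a claudin gene, was at 441 and 694 CPM (1.57 times, 1.54 to 1.61), and Cldn4 at 10.3 and 4.71 CPM; with classes at equal shares the ratios were 1.45 and 0.680.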
